A study of Vaccinium virgatum with 9 samples.

Results

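In fruit of rabbiteye blueberry, 110 genes stood at a lower transcript level when potassium sulfate had been given at flowering, and near the level of watered plants when it had been given at the young fruit stage. They were chosen by their measured group means, out of 38665 rows of the count table, of which 14945 had a water mean of at least 5 CPM (counts scaled to a common library total, after TMM factors). A member had a water mean of at least 5 CPM, a flowering mean at least 1.5-fold below both the water mean and the young fruit mean, and a young fruit mean within a window about the water mean, more than 0.8 times as high and less than the inverse of that. Every difference between group means that follows is therefore a description of how the genes were picked, and p-values of single members are not given.

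The libraries came from fruit of potted plants, 7 years old and from the cross Menditoo × Tifblue, all grown on a substrate that itself held potassium. The water group (CK) received water alone, the flowering group (KH) received 10 g of potassium fertilizer, potassium sulfate in water, per plant at the flowering stage, and the young fruit group (YG) received the same amount at the young fruit stage. Fruit of all 3 groups was picked 90 days after flowering, with 12 to 18 fruits per replicate and 3 libraries per group. Total counts lay between 15655016 and 18424967 per library. Every potassium plant received sulfate too, and fruit treated later was picked sooner after treatment, so neither potassium and sulfate nor the stage and the time since treatment can be told apart. In whole fruit, a lower level in each cell and fewer cells of a type that holds the transcript cannot be told apart either.

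Potassium is the main cation of plant cells. It sets turgor, activates many enzymes and takes part in loading sugar into the phloem, the route by which sugar reaches a growing fruit. Blueberry skin gains its colour from anthocyanins, flavonoid pigments made in part from phenylalanine and carrying sugar. The title of the series names potassium-induced anthocyanin production as its subject. The table holds identifiers without gene names or functions, so roles of the members are not known here, the fruit label could not be checked against marker genes, and 4 members are named by identifier. Of the 110 members, 93 carry identifiers that begin with Vadar, and 17 have a different prefix (non-Vadar loci).

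The members were a small part of what was lower after potassium at flowering. A flowering mean at least 1.5-fold below water was found for 2435 of the 14945 genes, and in 2009 of these (82.5%) the young fruit mean was also at least 1.5-fold below water. In another 226 the young fruit mean lay between those and the lower bound of the window, and in 24 it lay above the window. The young fruit mean lay inside the window for 176 genes. Of those 176, 66 had a flowering mean less than 1.5-fold below the young fruit mean, which left the 110 members, 4.52% of the 2435.

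**Figure D1:**
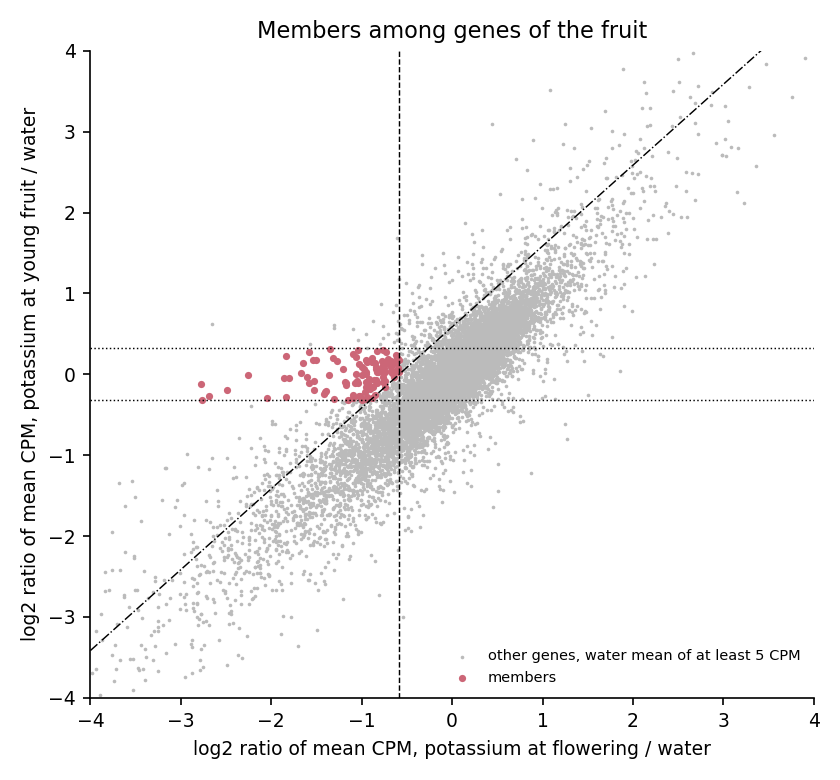
Log2 ratio of mean CPM to water for potassium at flowering (horizontal axis) and at young fruit (vertical axis), 1 point per gene with a water mean of at least 5 CPM; the dashed, dotted and dash-dotted lines are the limits of the rule, and 134 of 14945 genes have a ratio of 0 or lie outside the axes. The 110 members (red) form a horizontal band to the left of the main cloud, which runs along the diagonal where both timings moved a gene alike.

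Most members fell by a moderate amount. The ratio of the water mean to the flowering mean had a median of 1.93 and reached 6.86, and the ratio of the young fruit mean to the flowering mean had a median of 1.89 and reached 6.32. Over the 14945 genes these medians were 0.974 and 0.992. The water level was between 1.5 and 2 times the flowering level for 65 members, between 2 and 3 times for 32, between 3 and 4 times for 7 and at least 4 times for 6. The young fruit level lay on both sides of water, below the water mean in 51 members and above it in 59, with a median ratio of 1.02. The fitted median log2 fold change of young fruit against water was 0.00865 over the members, and it turned to -0.11 when libraries were scaled by their totals alone.

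Summed over the members, abundance in young fruit was slightly below that in water. The members made up 5233, 5326 and 5309 CPM in the 3 water libraries, 2607, 2649 and 2625 CPM in the 3 flowering libraries, and 5071, 5071 and 5146 CPM in the 3 young fruit libraries. The 3 groups did not overlap, with flowering the lowest and young fruit below water. As shares of the unscaled counts the sums were 0.554%, 0.569% and 0.558% in water, 0.254%, 0.255% and 0.258% in the flowering group, and 0.495%, 0.493% and 0.494% in the young fruit group. The group means were 5289 ± 49.8 CPM (SD, n = 3) in the water group, 2627 ± 21.0 CPM in the flowering group and 5096 ± 43.5 CPM in the young fruit group. The sum rests on few genes, since 10 members made up 60.02% of it in water and 1 member alone 19.3%. Without that member the means were 4268, 2084 and 4196 CPM.

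**Figure D2:**
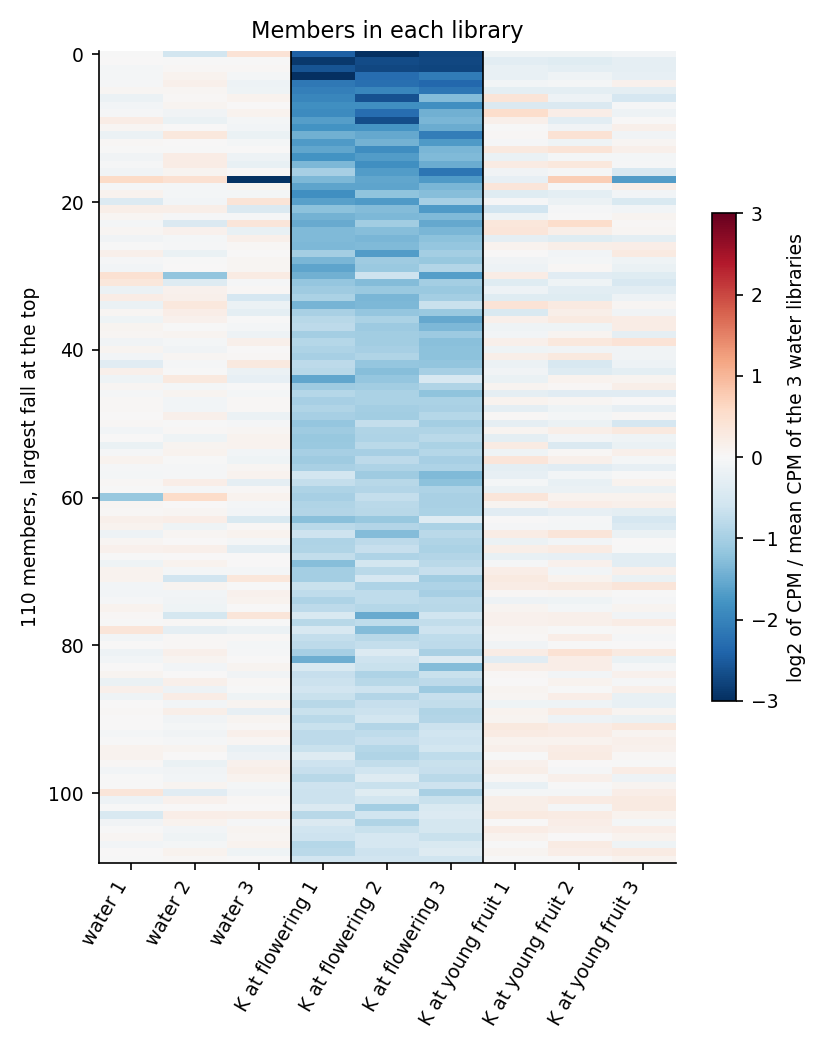
Each row is 1 of the 110 members and each column 1 of the 9 libraries, with colour giving the log2 of CPM over the mean CPM of the 3 water libraries, drawn up to 3 in either direction (2 values lie beyond). The 3 flowering columns (K at flowering) are blue from top to bottom, while water and young fruit columns are near white apart from single cells, such as a dark cell in water replicate 3.

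Of the members that fell furthest, 2 are named, Vadar_g12606.v1.2 and Vadar_g23405.v1.2. Vadar_g12606.v1.2 measured 68.3, 66.9 and 66.5 CPM in water, 9.10, 10.4 and 10.1 CPM in the flowering group, and 53.8, 52.5 and 55.5 CPM in the young fruit group. The groups did not overlap, and the young fruit libraries all lay between the other groups. Its log2 fold change in edgeR's fit was -2.78 ± 0.08 (SE) for flowering against water and 2.45 ± 0.08 for young fruit against flowering. Its young fruit mean was 0.802 times the water mean, just inside the lower bound of the window, so it was only just a member. The fitted ratio of young fruit to water was 0.796 (95% interval 0.723 to 0.876).

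Vadar_g23405.v1.2 was a scarce transcript with a fall of the same size. It measured 6.03, 4.12 and 7.99 CPM in water, 1.099, 0.649 and 0.896 CPM in the flowering group, and 5.49, 5.53 and 5.70 CPM in the young fruit group. Water spread widely and young fruit hardly at all, and all flowering libraries lay far below both. The log2 fold change was -2.77 ± 0.28 (SE) for flowering against water and 2.65 ± 0.28 for young fruit against flowering. The fitted ratio of young fruit to water was 0.920 (95% interval 0.674 to 1.255).

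Of the members with the highest water level, 2 are likewise named. CPM is a share of counts, and no gene lengths were given to correct it by. Vadar_g28175.v1.2 took 1018, 1000 and 1046 CPM in water, 538, 553 and 536 CPM in the flowering group, and 901, 898 and 901 CPM in the young fruit group. All 3 groups were apart, with young fruit nearer to water. The log2 fold change of flowering against water was -0.93 ± 0.04 (SE), that of young fruit against flowering was 0.73 ± 0.04, and the fitted ratio of young fruit to water was 0.874 (95% interval 0.825 to 0.927).

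Vadar_g33327.v1.2 had the smallest fall of all members and a tight spread. It took 516, 533 and 513 CPM in water, 348, 348 and 343 CPM in the flowering group, and 513, 525 and 557 CPM in the young fruit group. Water and young fruit overlapped, and the flowering libraries lay below both. The log2 fold change was -0.60 ± 0.05 (SE) for flowering against water and 0.62 ± 0.05 for young fruit against flowering, and the fitted ratio of young fruit to water was 1.01 (95% interval 0.949 to 1.08).

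**Figure D3:**
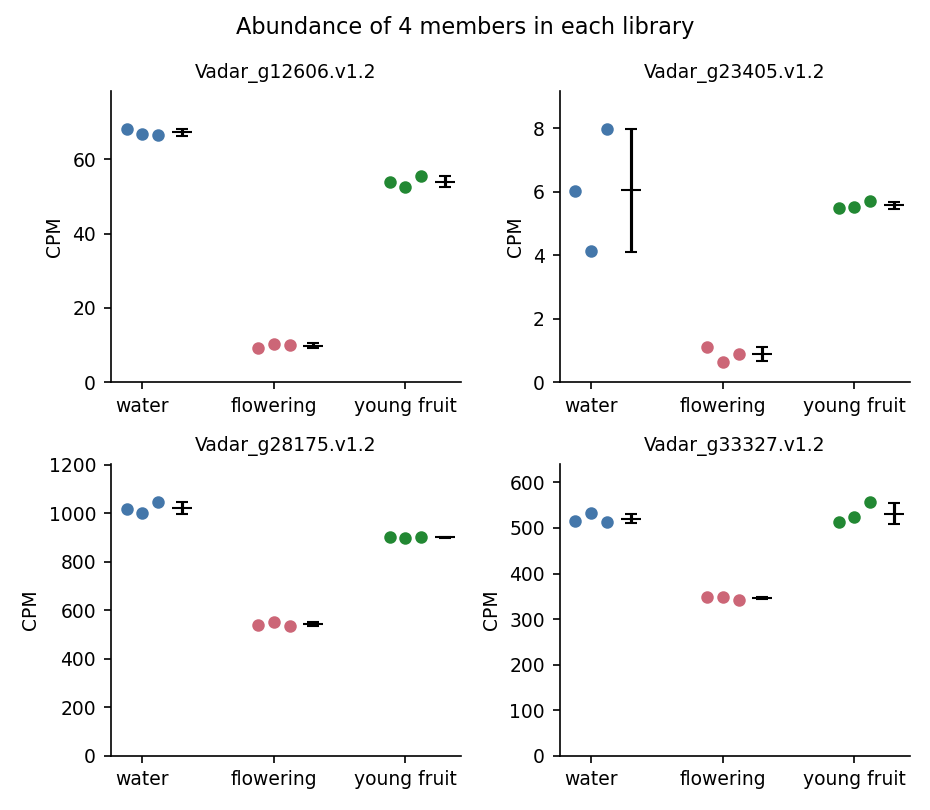
CPM of 4 members in each library, with axes that start at 0, by group (water, potassium at flowering, potassium at young fruit); points are libraries and the bar beside them is the mean ± SD of 3. In each panel the 3 flowering points lie below the other 6, from a 6.86-fold difference of means in Vadar_g23405.v1.2 to a 1.504-fold difference in Vadar_g33327.v1.2.

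The other 4 of the 6 members with a fall of at least 4-fold covered a wide range of levels. The member numbered 2 above Vadar_g12606.v1.2 measured 156, 167 and 168 CPM in water, 27.0, 24.7 and 24.2 CPM in the flowering group, and 140, 134 and 136 CPM in the young fruit group. Its 6.47-fold fall and its young fruit level of 0.833 times water were close to those of Vadar_g12606.v1.2, and whether the counting divided reads between similar copies is not known. The non-Vadar locus with the highest level measured 337, 387 and 313 CPM in water, 77.6, 72.1 and 67.8 CPM in the flowering group, and 325, 331 and 378 CPM in the young fruit group. For this locus water and young fruit overlapped, with means of 346 ± 37.8 and 345 ± 28.8 CPM (SD, n = 3).

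A further Vadar gene was as scarce as Vadar_g23405.v1.2. It measured 6.03, 6.81 and 6.12 CPM in water, 0.610, 1.299 and 1.47 CPM in the flowering group, and 5.43, 5.79 and 5.32 CPM in the young fruit group. The remaining one measured 27.7, 27.4 and 24.0 CPM in water, 6.41, 6.82 and 5.89 CPM in the flowering group, and 21.5, 21.6 and 21.5 CPM in the young fruit group. In both the flowering libraries were the lowest, and in both all young fruit libraries lay below all water libraries. The 7 members that fell 3-fold to 4-fold had water means of 5.62 to 21.3 CPM and flowering means of 1.79 to 7.01 CPM.

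The size of the fall did not follow the level. Water means ran from 5.04 to 1021 CPM with a median of 14.97 CPM, against 24.0 CPM over all 14945 genes. The median ratio of water to flowering was 1.84 in the 33 members at 5 to 10 CPM, 1.93 in the 58 at 10 to 50 CPM and 1.93 in the 19 at 50 CPM or more. Members made up 1.03%, 0.766% and 0.454% of the genes in these classes. Vadar members and non-Vadar loci had median ratios of 1.92 and 1.99.

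**Figure D4:**
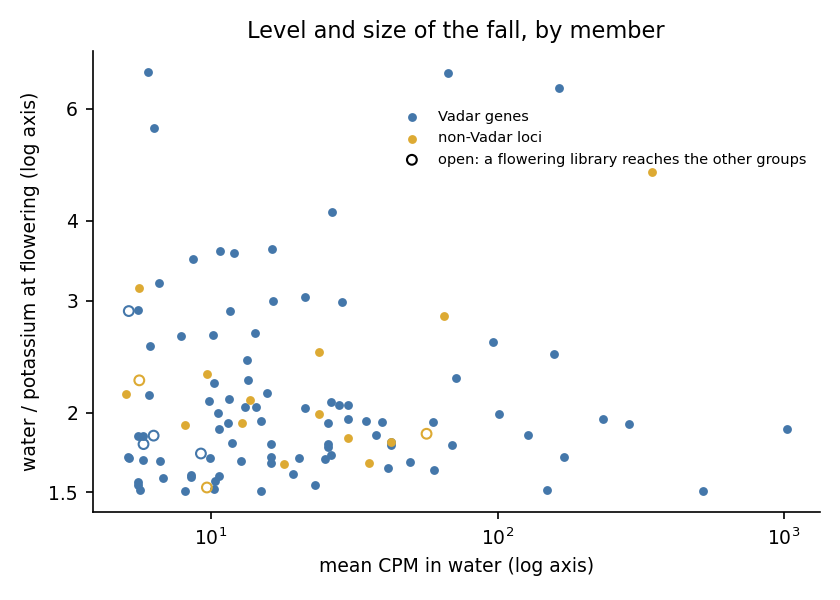
Mean CPM in water (horizontal, log axis) and the ratio of the water mean to the flowering mean (vertical, log axis), 1 point per member, with Vadar genes in blue and non-Vadar loci in yellow; open points are the 7 members in which a flowering library reached another group. Ratios above 4 occur from 6.05 to 346 CPM, and 6 of the 7 open points lie under 10 CPM.

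All 110 members passed the count filter, and each had at least 10 counts in every library, so no member rests on a library without reads. In edgeR's quasi-likelihood test at an adjusted p of up to 0.05, 110 of 110 members were lower after potassium at flowering than in water, where 24.4% of the 25728 genes tested were called lower. In 109 members young fruit was higher than flowering, where 10.4% of genes were called higher. In those 109 both calls fell on the same gene, which occurred in 4.16% of genes. The rule used the same group means, so these counts say how large the differences were beside the spread between libraries and nothing more. The median log2 fold change was -0.96 over the members and -0.02 over all genes tested for flowering against water, and 0.92 and -0.00350 for young fruit against flowering.

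Being within the window did not mean being equal to water. In the test of young fruit against water 16 members were called, 11 lower and 5 higher, beside 51.3% of all genes tested. The 11 had ratios of young fruit to water of 0.802 to 0.881 and water means of at least 23.9 CPM, and the 5 had ratios of 1.14 to 1.23. All 3 young fruit libraries lay below all 3 water libraries in 15 members and above them in 14, and the groups overlapped in the other 81. They overlapped in 32.6% of the 14945 genes, and the window itself picks genes in which they overlap. A call that was not made does not show that young fruit and water were alike.

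The flowering libraries lay below all other 6 libraries in 103 members, beside 7.57% of the 14945 genes. In the 7 others a water library reached down to the flowering range, and in 2 of these a young fruit library did too. A Vadar gene with 7.72, 7.12 and 0.666 CPM in water, 2.01, 1.75 and 1.60 CPM in the flowering group, and 4.37, 8.69 and 1.61 CPM in the young fruit group was the 1 member not called in young fruit against flowering. Its low water value is the dark cell in the map of members by library. A non-Vadar locus had 25.9 CPM in water replicate 1 against 82.6 and 61.2 CPM in the other two, with 28.4, 34.5 and 28.7 CPM in the flowering group. In these 2 members only part of the water libraries lay above the flowering range. With water replicate 2 or 3 left out, 110 of 110 members were called in young fruit against flowering. The lowest of the 9 libraries was a flowering library in 108 members, divided 35, 36 and 37 among the 3 of them.

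The fall was then read in libraries set aside while the rule was applied. The rule was applied to the 6 libraries left when 1 replicate number was set aside, and the genes it chose were measured in the 3 libraries set aside, 1 of each group. Without replicates 1, 2 and 3 the rule chose 130, 115 and 113 genes, of which 89, 85 and 85 were among the 110 members. In the libraries set aside, flowering was below both other groups for 90%, 96.5% and 93.8% of the chosen genes, and for 25.9%, 25.01% and 25.2% of all genes over 5 CPM in water. Most chosen genes thus had the same direction in the libraries set aside. The rule itself was set with earlier results of these data known, so this reading is a description and no independent support. The labels do not say whether replicates were different plants, so this likeness between libraries may be technical.

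The size of the fall was kept in most of the chosen genes. The median ratio of water to flowering was 1.76, 1.91 and 1.88 in the libraries set aside, against 1.83, 1.92 and 1.87 in those used for the choice. Both 1.5-fold differences were met again by 58.5%, 66.1% and 63.7% of the chosen genes, and by 3.68%, 3.67% and 3.16% of all genes. The whole rule, window included, was met again by 46.2%, 52.2% and 47.8%, beside 0.959%, 1.06% and 0.895% of all genes. With 1 library per group these are descriptions without a test, and membership of genes near a limit changed with the libraries.

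**Figure D5:**
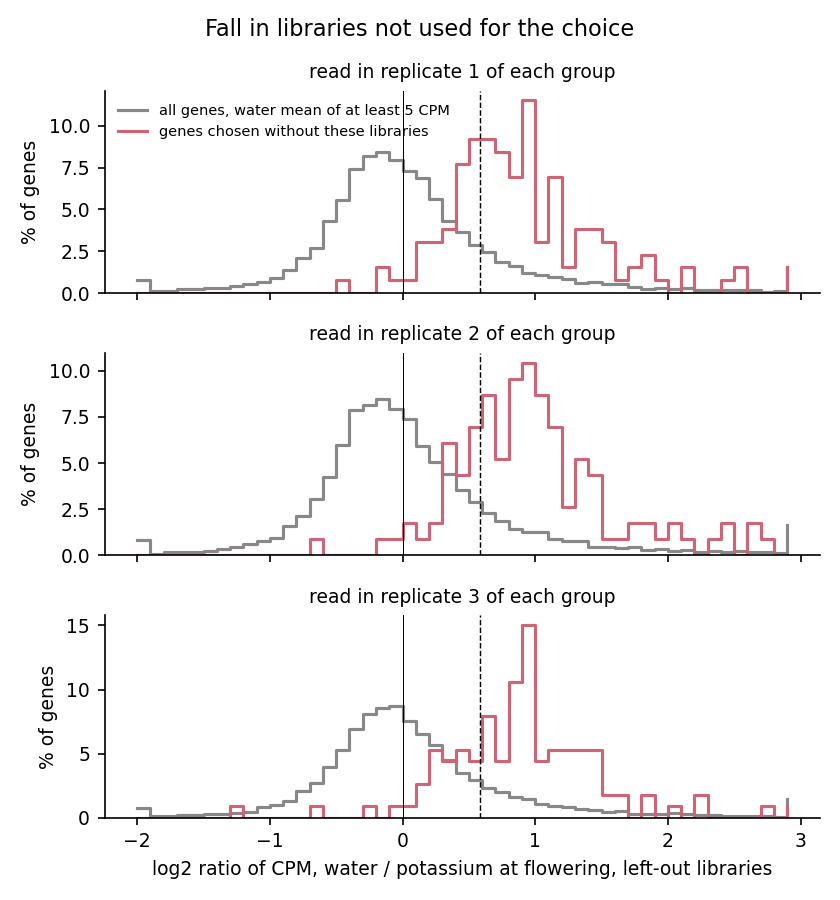
Log2 ratio of CPM in water over potassium at flowering (horizontal axis), measured in the 3 libraries set aside, as the percentage of genes per step of the axis (vertical axis), for genes chosen from the other 6 libraries (red) and for all genes with a water mean of at least 5 CPM there (grey); values beyond the range from -2 to 3 are counted in the end steps, and the dashed line marks 1.5-fold. In each panel the red curve lies to the right of the grey one, with medians of 1.76, 1.91 and 1.88-fold against 0.976, 0.963 and 0.980-fold.

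Replicates of the members spread most after potassium at flowering, where their levels were lowest. The median coefficient of variation within a group was 7.78% in water, 11.2% in the flowering group and 8.48% in the young fruit group, against 7.27%, 6.43% and 7.03% over all genes with at least 5 CPM in water. It was over 30% in 4, 9 and 2 members. For the 19 members with at least 50 CPM in water the medians were 4.30%, 5.02% and 3.54%, against 5.09%, 3.76% and 4.49% over all genes at that level. For the 33 members at 5 to 10 CPM they were 14.1%, 21.3% and 11.6%, against 12.3%, 12.7% and 12.8%. Whether the lower level accounts for the spread in the flowering group was not tested. No library shifted the members as a block: the median deviation of a library from its group mean over the members lay between -0.00507 and 0.0114 on the log2 scale.

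The limits of the rule cut through a continuous range. The member closest to the water minimum had 5.04 CPM and the closest gene outside 4.95 CPM. At the fold below water these were 1.504 and 1.492, and at the fold below young fruit 1.505 and 1.498. For the ratio of young fruit to water they were 0.801 and 0.799 at the lower bound, and 1.242 and 1.253 at the upper one. A single limit kept out 1002 genes at the water minimum, 35 at the fold below water, 66 at the fold below young fruit, 268 at the lower bound of the window and 24 at the upper bound.

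The same folds and window, turned to the other patterns, gave sets of similar kind. They held 48 genes raised after potassium at flowering alone, 79 lowered after potassium at young fruit alone and 88 raised after potassium at young fruit alone. The median log2 change against water was 0.95 in size for the members, and 0.91, 0.96 and 0.85 in these 3 sets. A change of at least 2-fold was seen in 45 of 110 members, and in 17, 34 and 28 genes of the other sets. A change of at least 4-fold was seen in 6 members and in 0 genes of each of the other sets, a difference that was not tested. Among all 14945 genes, 1901 changed at least 2-fold and 575 at least 4-fold between flowering and water, in either direction. Non-Vadar loci made up 15.5% of the members, 14.6%, 16.5% and 10.2% of the other sets and 11.7% of the 14945 genes.

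Identifier numbers, which the rule did not use, placed few members beside each other. Of the 93 Vadar members, 4 had another member within 5 numbers, in 2 pairs, and both pairs held 1 of the named genes that fell furthest. Among all Vadar genes over 5 CPM in water that lay within 5 numbers of a member, 1.27% were members, beside 0.705% of all such genes. The sources used here do not say whether numbers follow position in the genome.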

How the data were processed

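Whole-number counts per gene were deposited by the authors, 1 column per library and without normalization. Per the submitters' processing notes HISAT2 2.1.0 and StringTie 1.3.4d were used; how reads were counted, on which build and annotation and with which strand setting, is not stated in the sources used. Libraries were grouped by title. CPM was computed with edgeR's TMM factors over all rows. The members and tests were chosen with earlier results of these data known.

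Tests across all genes were made on all 9 libraries with the quasi-likelihood F test of edgeR 4.0.16 (R 4.3.3), after filterByExpr (minimum count 10, minimum total 15), with Benjamini-Hochberg adjustment; a standard error is the fold change over the root of F. The script was tested on simulated data. Genes named are the 2 members with the lowest fold change against water and the 2 with the highest water mean, among Vadar members called in both comparisons with flowering libraries below the other 6. Gene lists could not be matched without names. The labels do not say whether replicates were different plants; p-values then reflect only how these libraries spread, which may be technical. Replicates differed by more than sampling noise (chi-square per degree of freedom 2.62 to 6.18). Alternatives covered scaling, filters, DESeq2 1.42.0, limma 3.58.1, the limits of the rule and each library left out.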

Additional observations from a re-analysis of the deposited data

Results flagged for a closer look

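Set against water, the members were lower in the flowering group and near water in the young fruit group, as the rule required. In the direct test between the potassium groups, 109 of 110 members were higher after potassium at young fruit than after potassium at flowering. The members were picked for that difference, so the count describes the choice.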

How the results depend on the processing

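Membership depended on both the limits and the libraries. A 2-fold limit left 36 genes, and a window from 0.9 upward (and its inverse) left 60. A water minimum of 1 CPM gave 332 and a minimum of 10 CPM left 77. Other scalings gave 99 to 125 genes, of which 90 to 110 were members; with library size as the only scaling, the median log2 change against water over all genes went from -0.02 to -0.13 at flowering and from -0.02 to -0.14 at young fruit, and that of the members from -0.96 to -1.07 and from 0.00865 to -0.11. With any 1 library left out the rule found 106 to 127 genes, 92 to 103 of them members. With the 110 members held fixed, the number called against water in young fruit dropped from 16 to 10 at an adjusted p of up to 0.01. It rose to 24 with library size as the only scaling. Of 93 counts, 89 stayed at or within 1.5 times, the 24 just at that limit. Counts of members called in the comparisons with flowering were largely set by the folds of the rule. In the named genes, 152 of 152 fold changes kept their direction and call. The named genes were picked among members called in both comparisons with flowering, so that outcome was largely set by the choice. Replicate numbers gave no clear sign of pairing. Deviations correlated at -0.05 to 0.07 between same-numbered libraries and at -0.07 to 0.08 between libraries of different number. A library correlated best with its own number in 8 of 18 comparisons. With the replicate block 110 members were called in both comparisons with flowering, against 109. The lowest count, 10 in a library, limits how well the scarcest members are measured.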

Other observations

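Genes numbered near Vadar_g12606.v1.2 differed among themselves, and they are described after their values had been seen. Those numbered 1 below, 2 below and 5 above it were higher in all potassium libraries than in all water libraries. The gene numbered 1 below it measured 79.3, 87.4 and 85.5 CPM in water, 283, 288 and 281 CPM in the flowering group, and 374, 364 and 374 CPM in the young fruit group. The gene numbered 5 above it measured 11.9, 10.98 and 10.4 CPM in water, 27.7, 29.9 and 27.3 CPM in the flowering group, and 46.6, 43.6 and 44.3 CPM in the young fruit group. In the genes numbered 1 below and 5 above, the 3 groups were apart, with water lowest and young fruit highest. Vadar_g12606.v1.2 and the member numbered 2 above it had their lowest values after potassium at flowering. Of the other non-members within 5 numbers, the gene numbered 2 below had means of 8.95, 18.6 and 27.4 CPM in water, flowering and young fruit. The gene numbered 5 below had means of 5.91, 6.66 and 5.94 CPM. The genes numbered 3 and 4 below were scarce, with means of 1.29, 0.719 and 1.99 CPM and of 0.202, 0.547 and 0.252 CPM. The first of them had its lowest mean in the flowering group. Its water replicate 1, at 0.724 CPM, lay within the flowering range of 0.610 to 0.832 CPM. Its young fruit mean was 1.54 times the water mean, above the window.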
